A study of Mus musculus with 3 samples.

Results

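The cells described here were chosen by their own transcripts, as cells that carry the LIM homeobox gene Lhx9 together with trunk Hox genes. A cell was a member when it held at least 1 raw UMI (unique molecular identifier, 1 counted transcript molecule) of Lhx9 and at least 2 UMIs of Hoxc5, Hoxd8 and Hoxd9 together. It also had to lack Wt1 (a gene of the epicardium and urogenital ridge) and Tbx4 (a gene of the hindlimb field and allantois), and to hold fewer than 50 UMIs per 10000 of the contractile genes Myl7, Tnnt2, Ttn and Myl4. Of 14777 cells, 253 were members (1.71%). Members had a median of 25139 UMIs and 5532 genes.

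Lateral plate mesoderm splits early into a somatic layer under the ectoderm, which forms body wall and limb buds, and a splanchnic layer around the gut, which feeds the heart and visceral muscle. Limb buds arise where the somatic layer expresses Tbx5 (forelimb) or Tbx4 (hindlimb), with Fgf10 as the mesenchymal growth signal. Lhx9 and Lhx2 are LIM homeobox factors of the distal limb mesenchyme, and Lhx9 also acts in the gonad and epicardium. Hox genes are expressed along the trunk in the order of their paralog groups, and those of the HoxA and HoxD clusters also pattern the limb. Wls carries Wnt ligands to the cell surface for secretion.

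The cells came from mouse embryos of a C57BL/6 background with Mesp1-Cre, the Ai9 reporter (a red fluorescent protein switched on by Cre) and floxed Wls. Controls were Wls fl/+ and mutants Wls fl/fl, so control embryos too carried Cre and 1 floxed allele. Mesp1-Cre is active in early mesoderm, so only cells with that history, sorted as reporter positive, entered the libraries. Embryos were staged, tagged with lipid barcodes (MULTI-seq), pooled and sequenced in 3 runs. A barcode sample, named below by genotype and barcode number, is the unit of every test. Whether a barcode is 1 embryo is not given in the sources used here, so p-values measure the spread between barcode samples.

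There were 22 barcode samples: 1 control labelled E7.5, 6 samples at E8.0 (run 1), 3 at E8.5 (run 2) and 12 at E9.5 (runs 1 to 3). No member was found at E7.5, 1 at E8.0, 79 at E8.5 and 173 at E9.5. Controls gave 199 members and mutants 54, in 10 samples altogether, and 3 controls held 74.3% of all members. Of the cells, 23 cell barcodes occurred in more than 1 run, none of them in a member. Median depth per cell was 9759.5 to 13382 UMIs in the E9.5 samples of run 3 and 14710 to 24431 in those of runs 1 and 2.

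Across the thresholds of the rule some genes were graded, while others differed little between members with 1 Lhx9 UMI and those with more. The Hox sum reached 2 in 1615 cells, and 262 of them also held Lhx9. Of these 262, Wt1 left out 5, Tbx4 left out 3 and contractile genes left out 1. Among members, 73 held a single Lhx9 UMI and 180 held more. Members with 1 Lhx9 UMI had 73.0 CPM (UMIs per 1000000 UMIs of the cells summed) of Lhx2, and those with more had 98.8. Tfap2c stood at 6.90 and 33.2 CPM in the same 2 sets, and Hand1 at 15.5 and 1.26. Prrx1 (355 and 372 CPM), Lix1 (197 and 201) and Fgf10 (48.9 and 45.4) differed little, and Tbx5 was higher in the first set (91.4 and 80.1). Most members of control 23 and mutant 19 held 1 Lhx9 UMI, so sample and Lhx9 content are mixed in these sets. Just outside the rule, 27 cells with Lhx9 and a Hox sum of 1 had 42.1 CPM of Lhx2 and 210.5 CPM of Prrx1. A further 96 cells with Lhx9 and no trunk Hox UMI had 14.9 CPM of Lhx2, 81.9 CPM of Prrx1 and 51.8 CPM of Tbx1, a pharyngeal mesoderm gene that stood at 2.46 CPM in members. The 1018 cells without Lhx9 that met every other term of the rule are called Lhx9-negative trunk Hox cells below. They were not matched to members in cell type. In the 6 samples with at least 10 members, a list of endoderm and epithelium genes summed to 415 to 1049 CPM in them. In members it summed to 10.5 to 80.1 CPM.

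The share of members was uneven between samples of one stage and genotype. At E9.5, control 9 had the highest share among controls, 4.43% of 1377 cells (exact Clopper-Pearson 95% interval 3.41 to 5.65). Control 22 had 2.58% of 1859 cells (1.91 to 3.41) and control 23 had 0.640% of 1719 cells (0.320 to 1.14). No member was found among the 608 cells of control 4, which allows a share of up to 0.493% by the limit of 3 counts used for samples without a member (0.605% by the exact interval). Control 7 had none among 164 cells, which allows up to 1.83% by 3 counts. It had 0 cells with a trunk Hox sum of 2 or more, whereas control 4 had 57. The intervals of controls 22 and 23 do not meet, and those of controls 9 and 22 meet only at their ends. These intervals cover counting error only, and the spread between embryos was not tested.

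Among E9.5 mutants, mutant 5 had 7.02% of only 57 cells (1.95 to 17.0), from 4 members. Mutant 21 had 3.42% of 730 cells (2.23 to 5.01), mutant 10 had 1.79% of 280 cells (0.582 to 4.12) and mutant 19 had 1.74% of 864 cells (0.975 to 2.85). Mutant 20 had 0.583% of 686 cells (0.159 to 1.49), and mutant 8 had none of 168. The 2 genotypes overlapped throughout. At E8.5, all 79 members lay in control 3 (3.15% of 2508 cells, 2.50 to 3.91), while mutant 1 had none among 487 cells, which allows up to 0.616% by the limit of 3 counts (0.755% by the exact interval), and control 2 none among 34. Members of E8.5 therefore come from 1 control sample, and whether the absence in mutant 1 belongs to genotype or to that sample cannot be told apart.

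Over all samples with at least 20 cells, mutants had a mean share of 1.47 ± 2.26% (SD, n = 10) and controls one of 0.982 ± 1.61% (SD, n = 11). Within stage and run, mutants lay 0.323 percentage points above controls (exact permutation test, two-sided, p = 0.772; smallest possible p 0.00139). At E9.5 the shares were 2.42 ± 2.54% (SD, n = 6) and 1.53 ± 1.94% (SD, n = 5), and the difference was 0.945 points (exact permutation p = 0.65). The spread between samples exceeded both differences, and the sign turned when mutant 5 or control 4 was left out (-0.443 over all stages and -0.435 at E9.5). The share of cells with a trunk Hox sum of 2 or more ranged from 5.71% to 14.4% in the 8 samples of E9.5 that held members. That of members among such cells ranged from 4.12% in mutant 20 to 61.0% in control 9. Of the E9.5 samples without members but with at least 20 cells, control 4 had 57 such cells (9.4%), control 7 had 0 and mutant 8 had 1. Their shares of 0 enter the means and tests above.

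**Figure D1:**
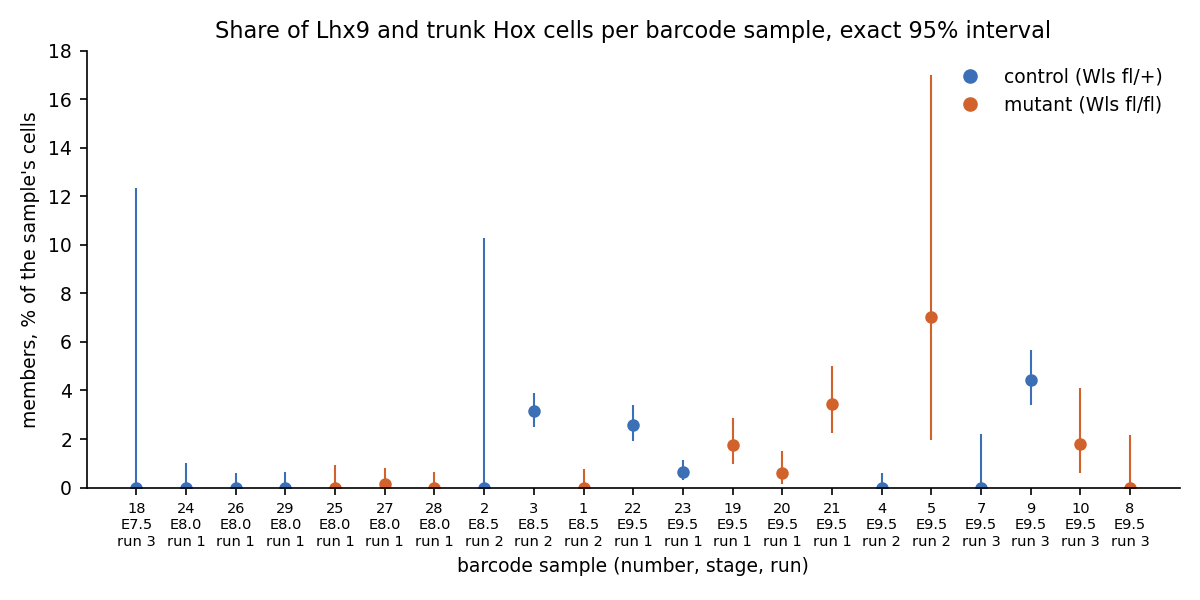
Share of members in each barcode sample of at least 20 cells (y axis, percent of the sample's cells, with exact 95% intervals), ordered by stage and run. Blue points are controls and orange points mutants; at E9.5 both genotypes run from 0 to over 4%.

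Levels are described over the 6 samples with at least 10 members, which are controls 3 (E8.5, 79 members), 9 (61), 22 (48) and 23 (11) and mutants 21 (25) and 19 (15). Since the rule chose members by expression, the comparisons with other cells are descriptions without a test, on the log2 scale with 5 CPM added to both sides. Of 10755 genes measured (5 CPM or more on either side), 150 were more than 1 higher in members than in all other cells of the same samples (1.39%) and 485 more than 1 lower (4.51%). Against Lhx9-negative trunk Hox cells, 64 of 10635 were higher by this amount (0.602%) and 268 lower (2.52%).

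The label of lateral plate was set against marker lists, and somatic and limb field genes were higher and splanchnic genes lower than in all other cells. Of the 5 label markers, 4 are genes of the rule. The fifth, Lix1, a gene of limb bud mesenchyme, stood at 202 ± 13.8 CPM (SD, n = 6) in members and 37.9 CPM in other cells. It lay between 189 and 223 CPM in all 6 samples. Of 12 somatic lateral plate genes measured, 6 were more than 1 higher than in other cells and none lower, with a list median of 0.79 against 0.10 over all genes measured. Most of these 12 genes are also on the limb field list, so the lists are not separate support. Hand2 is on the splanchnic list as well. Of 10 splanchnic genes measured, 7 were lower and 2 higher, with a median of -2.05. Against Lhx9-negative trunk Hox cells the somatic and limb genes stood less apart, with 2 of 12 somatic genes (median 0.10) and 6 of 24 limb field genes (median 0.12) higher by more than 1, and Lix1 at 0.75. Of 12 splanchnic genes, 8 were lower by more than 1 than in those cells (median -1.65).

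Within the limb field list, 11 of the 24 measured genes were higher by more than 1 and none lower (median 0.84). Prrx1, a paired-type homeobox gene of limb mesenchyme, had 402 CPM in control 3, 362 in control 9, 336 in control 22 and 355 in control 23. Mutants 19 and 21 had 299.6 and 361 CPM, and other cells a mean of 82.1. Every sample of members lay above its own other cells and above its Lhx9-negative trunk Hox cells (mean 152 CPM). Twist1, a basic helix-loop-helix factor of lateral mesenchyme, had 811 ± 83.2 CPM and Msx1, a target of BMP signals, 351 ± 93.5 CPM (SD, n = 6).

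Tbx5, the forelimb field factor, had 60.9 CPM in control 3, 65.3 in control 9, 108 in control 22 and 109 in control 23. Mutants 19 and 21 had 121 and 110 CPM, against a mean of 18.8 CPM in other cells. The 4 samples of run 1 were thus all higher than the 2 samples of runs 2 and 3, of which 1 is E8.5 and 1 is E9.5. Mutants 10 (run 3) and 5 (run 2), with 5 and 4 members, had 80.9 and 37.5 CPM. Fgf10 was even across samples, 41.5 to 62.4 CPM, with a mean of 50.2 CPM against 7.72 in other cells. With each cell thinned to 5000 UMIs and shallower cells left out (11 to 79 members a sample), a Tbx5 UMI was held by 19.0% of members of control 3 to 43.8% of those of control 22, against 10.1% to 18.6% of Lhx9-negative trunk Hox cells of the 6 samples. In control 3 the kinds of cells were close, 19.0% against 17.6%. Fgf10 UMIs were held by 13.3% to 27.3% of members and 3.03% to 12.05% of Lhx9-negative cells, closest in mutant 19 (13.3% against 12.05%).

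Lhx2, the close relative of Lhx9, varied widely between samples. It had 144 CPM in control 9, 92.7 in control 3, 92.3 in mutant 21 and 83.7 in control 22, but 49.9 in mutant 19 and 24.9 in control 23. The low samples, 1 of each genotype, were also those in which few members held more than 1 Lhx9 UMI: 18.2% in control 23 and 33.3% in mutant 19, against 75.0% to 80.3% in the 4 others. Tfap2c, an AP-2 factor, ranged from 3.12 to 54.4 CPM and was also lowest in control 23. Lmx1b, the dorsal limb factor, had 34.6 ± 11.9 CPM in members against 2.64 in other cells, and the FGF target Etv4 had 40.5 ± 16.0 against 7.70.

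Hand2, Irx3 and Meis1, on the same list, were below the Lhx9-negative trunk Hox cells in 6 of 6 samples. Hand2, a factor of posterior limb and heart mesenchyme, had 30.2 ± 6.18 CPM in members and 62.4 CPM in the Lhx9-negative cells. Emx2 stood at 1.37 CPM and Grem1, a BMP antagonist of the outgrowing bud, at 5.99 CPM. In other cells Grem1 had 8.48 CPM.

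Several splanchnic genes were near 0 in members. Foxf1, a forkhead factor of gut mesenchyme, had 3.22 CPM against 45.6 in Lhx9-negative trunk Hox cells and 35.6 in other cells. After thinning, a Foxf1 UMI was held by 0 to 4.17% of members and by 3.03% (control 9) to 21.4% (control 23) of Lhx9-negative cells of the 6 samples, with the lower share in members in each. Hand1, a basic helix-loop-helix factor, had 7.64 against 147 CPM, and it was above 10 CPM only in control 22 (13.7) and control 23 (24.9) of the 6 samples. Wnt2 had 4.74 against 70.8 CPM, Isl1 1.20 against 16.6 CPM and Gata4 0.805 against 6.81 CPM. The exceptions were Bmp4 and Tbx3, which limb mesenchyme also expresses. Bmp4 had 138 CPM in control 22, 99.8 in control 23 and 137 and 135 in mutants 19 and 21, but 31.4 in control 3 and 25.2 in control 9. Mutant 10 of run 3 had 23.1 CPM, but mutant 5 of run 2 had 131 CPM, from 4 members. Since control 9 and mutant 10 are E9.5 like the samples of run 1, the low values were not limited to the earlier stage. Run and the embryos of a run cannot be told apart.

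**Figure D2:**
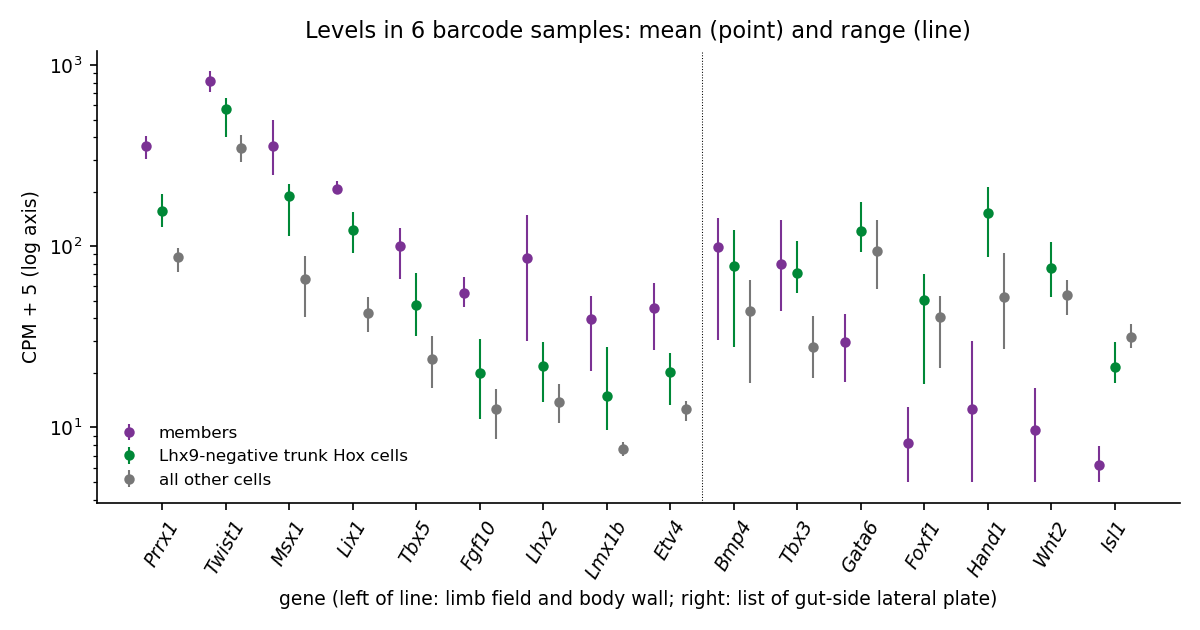
Mean (points) and range (lines) over 6 barcode samples of CPM + 5 (log axis) for 16 genes in members, Lhx9-negative trunk Hox cells and all other cells. The genes left of the dotted line, Lix1 and a choice of somatic and limb field genes, are highest in members. Hand2, Irx3 and Meis1 of the limb field list, which were lower in members than in Lhx9-negative trunk Hox cells, are not shown. Of the splanchnic list on the right, Bmp4 and Tbx3 are high and Foxf1, Hand1, Wnt2 and Isl1 are low.

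Markers of several other tissues were low. All 10 cardiomyocyte genes and all 10 blood genes were more than 1 lower than in other cells. Other cells include the contractile and globin-rich cells, and the rule caps contractile UMIs in members, so this outcome was largely set in advance. Lhx9-negative trunk Hox cells are under the same cap. Against them 1 of 5 cardiomyocyte genes (median -0.18) and 0 of 6 blood genes (median -0.26) were lower by more than 1. The summed blood list still came to 1730 to 7176 CPM in members and 1934 to 6569 CPM in Lhx9-negative trunk Hox cells, and only 5 members held under 20 UMIs of it, so globin UMIs were present in nearly every cell. The cardiomyocyte list summed to 49.1 to 98.5 CPM and the endothelial list to 77.4 to 142 CPM. In Lhx9-negative trunk Hox cells they summed to 87.3 to 188 and 70.7 to 374 CPM. The intermediate mesoderm and gonad list summed to 140 to 221 CPM, against 132 to 183 CPM in Lhx9-negative trunk Hox cells. Most of this sum was Cited2 (158 CPM), which had 234 CPM in other cells, while Lhx1 had 15.4 CPM against 6.59. Pax2 and Nr5a1 of that list had 0 UMIs in all members, as had the somite gene Mesp2. The smooth muscle genes Acta2 and Tagln stood at 23.4 and 2.55 CPM against 470 and 65.3 in other cells.

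Among the Hox genes, members combined high levels of groups 5 to 8 with an uneven set of group 9 and 10 genes. Lower groups were less distinct, with 4 of 12 genes of groups 1 to 4 higher than in other cells by more than 1. Of the 8 measured genes of groups 5 to 8 outside the rule, 7 were higher than in other cells by more than 1 (median 1.76). Hoxa5 had 139 ± 54.2 CPM, Hoxb6 119 ± 30.9 CPM and Hoxa7 66.4 ± 14.3 CPM (SD, n = 6). Against Lhx9-negative trunk Hox cells, none of these genes was higher by more than 1 and Hoxc8 was lower (9.85 against 69.9 CPM).

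In group 9, which marks the rear of the thorax and the limb bud, Hoxd9 is part of the rule. Hoxa9 had 139 CPM in control 9, 87.4 in mutant 21, 62.1 in control 22, 49.9 in mutant 19, 31.0 in control 3 and 3.12 in control 23. Hoxb9 ran from 0.374 to 28.0 CPM and Hoxc9 from 0 to 21.8 CPM, against means of 66.1 and 52.7 CPM in Lhx9-negative trunk Hox cells. In 5 of the 6 samples Hoxa9 stood above both Hoxb9 and Hoxc9, and in control 23 it stood below both. Hoxd10 was also uneven, with 69.2 CPM in mutant 21, 58.4 in control 9, 19.5 in control 22, 10.5 in mutant 19, 6.35 in control 3 and 3.12 in control 23. Hoxc10 had 0.939 CPM against 36.4 CPM in the Lhx9-negative cells, and Hoxc11, Hoxc12, Hoxc13, Hoxd12 and Hoxb13 had 0 UMIs. The annotated span of Hoxc5 (GRCm38 chromosome 15, 102967443 to 103017429) covers Hoxc6, Hoxc8 and Hoxc9 and overlaps Hoxc10 in part. Counts of these may thus be divided uncertainly.

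Control 23 stood apart in several of these genes. Control 23, lowest in Hoxa9 and Hoxd10, was highest in Hoxc6 (115 CPM, others 35.5 to 78.9), Hoxc8 (31.2 CPM, others 2.24 to 10.5) and Hoxc9 (21.8 CPM, others 0 to 5.26). It also had the fewest members with more than 1 Lhx9 UMI. With 11 members, its values carry wide counting error, and its part in the spread between samples was not tested.

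**Figure D3:**
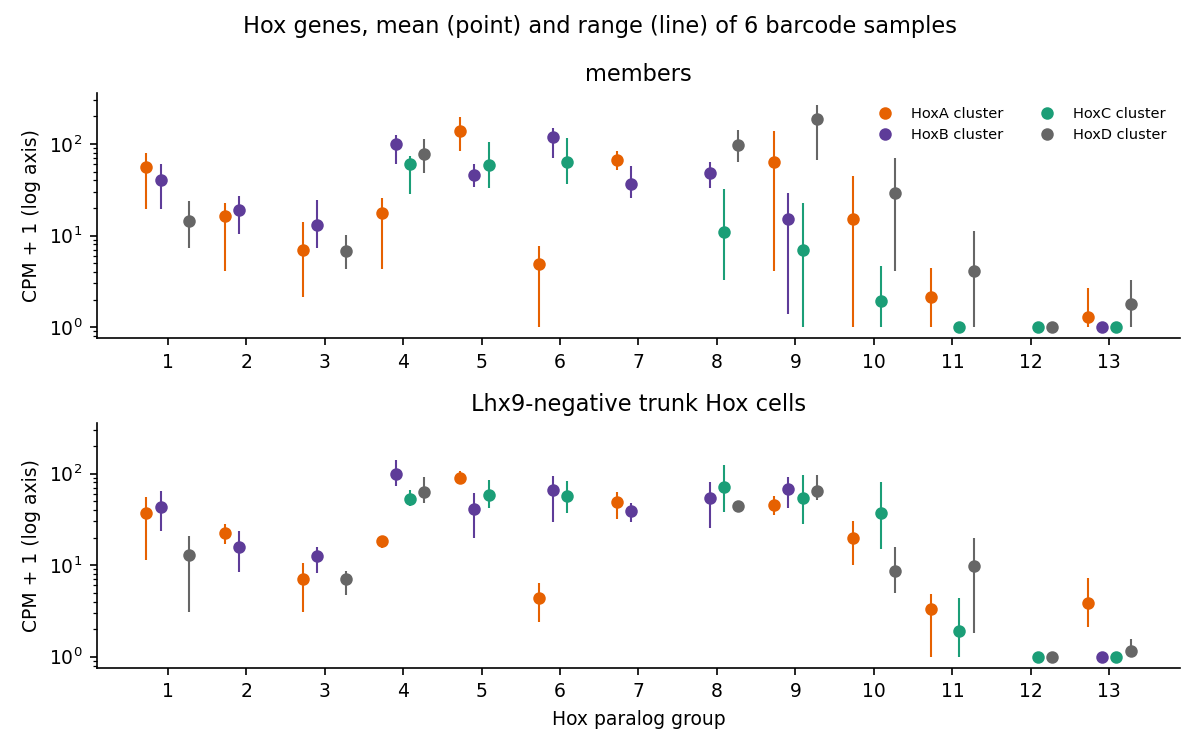
Hox genes by paralog group (x axis) in members (top) and Lhx9-negative trunk Hox cells (bottom), with the mean (point) and range (line) over 6 barcode samples of CPM + 1 on a log axis, coloured by cluster. Hoxc5, Hoxd8 and Hoxd9 were used to choose the cells, so their levels are no finding. In members the mean of Hoxa9 lies above those of Hoxb9 and Hoxc9, and its range reaches down to 3.12 CPM, in control 23.

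Other leading genes included Jaml, a junctional adhesion molecule (39.1 CPM against 1.76 in other cells), Ets2, an ETS factor (117 against 15.7), Apcdd1, an inhibitor of Wnt signalling (71.0 against 7.62), and Mecom, a zinc finger factor (115 against 22.2). All 4 were above the sample's own other cells in 6 of 6 samples. Rspo4, a secreted enhancer of Wnt signalling, had 40.6 CPM against 3.24. Rspo4 was higher in mutant 21 (74.2 CPM) and control 22 (54.9 CPM) than in the other 4 samples (18.7 to 37.8 CPM).

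Several genes that respond to canonical Wnt signals were higher in members than in all other cells. Of 12 Wnt targets measured, 6 were more than 1 above other cells (median 1.02). Against Lhx9-negative trunk Hox cells only 1 of 13 was (median 0.26). Lef1 had 164 to 230 CPM (mean 192) against 33.4, Tcf7 had 77.8 ± 15.4 against 19.4, Axin2 had 59.4 ± 13.8 against 22.1 and Cdx1 had 45.0 ± 14.5 against 4.29 (SD, n = 6). Of the ligands, Wnt5a (39.6 CPM) and Wnt5b (20.5 CPM) led, and Wnt3, Wnt3a and Wnt9b had 0 UMIs. Retinoic acid binding proteins were abundant, Crabp1 at 724 ± 149 CPM (SD, n = 6) against 213 and Crabp2 at 361 ± 84.1 CPM (SD, n = 6) against 155. The retinoic acid synthesis enzyme Aldh1a2 was low, 8.54 CPM against 45.7. In the FGF, BMP and hedgehog list, Bmp7 (48.2 against 14.2 CPM) and the FGF target Spry4 (15.9 against 2.58 CPM) were higher, and the hedgehog receptor Ptch1 was lower (26.3 against 76.1 CPM).

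The comparison of mutant with control members asks what the loss of Wls in the Mesp1 lineage did to these cells. It rests on mutants 19 and 21 against controls 22 and 23, all E9.5 of run 1. Controls 3 and 9 are each the only sample of their stage and run in the fit, so they add nothing to the contrast or to its residual spread. In these 4 samples sex ran with genotype: Y-linked genes summed to 135 and 150 CPM in the mutants and to 6.50 and 0 CPM in the controls, and Xist stood at 6.59 and 13.1 CPM against 181 and 218 CPM. Genotype and sex cannot be told apart there. All 5 blood genes tested had a positive difference (median 0.53 against 0.02 over all genes), and none passed. In each of them both mutants lay above both controls, which held for 19.8% of all genes. Globin UMIs were 0.189% and 0.317% of UMIs in members of mutants 19 and 21 and 0.175% and 0.173% in those of controls 22 and 23, and their part in the results was not tested.

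Wls itself (GRCm38 chromosome 3, 159839672 to 159938664) had 13.1 CPM in mutant 19 and 4.95 in mutant 21. Controls 3, 9, 22 and 23 had 37.0, 42.4, 28.2 and 24.9 CPM. All 4 controls lay above both mutants, and the fitted log2 difference was -1.71 ± 0.51 (SE), with an edgeR adjusted p of 0.346. Without mutant 19 it was -2.44 and without mutant 21 it was -1.05, and each of these fits leaves 1 mutant. The values lie in the direction of the labels, with 5 and 3 UMIs behind the mutants. Mutants 20, 10 and 5 had 0, 23.1 and 18.8 CPM. In Lhx9-negative trunk Hox cells of the same samples the difference was -1.91 ± 0.21 (SE).

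In all, 22 of 7939 genes passed an adjusted p of 0.05 (edgeR quasi-likelihood test; 0.277%), 7 higher and 15 lower in mutants, while 682 had an unadjusted p under 0.05. At E9.5 alone 22 of 7338 passed (0.300%), 8 higher and 14 lower. The count in members was 90 without mutant 19, 123 without mutant 21 and 52 without control 22, and at E9.5 it was 79, 104 and 8. Without mutant 19 or 21 the fit holds 1 mutant, so those counts do not measure the spread between mutants. The named genes among the 22 in members begin with those of sex: Eif2s3y (6.24 ± 0.85 SE) and Ddx3y (5.83 ± 0.94) rose and Xist (-4.46 ± 0.31) fell. In the E9.5 fit the Y-linked Uty passed as well (5.17 ± 0.94).

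Hoxa5, the only gene of the Hox lists to pass, was lower in mutants by a log2 difference of -0.97 ± 0.18 (SE, edgeR adjusted p = 0.0377). It had 94.6 CPM in mutant 19 and 90.7 in mutant 21, against 180 in control 22, 187 in control 23 and 197 in control 3. Control 9 had 83.6 CPM, below both mutants, so the genotypes overlapped outside run 1. Of the small mutant samples, mutant 20 (run 1, 4 members) had 206 CPM and lay with the higher controls, while mutants 10 and 5 had 104 and 113 CPM and lay near mutants 19 and 21. By Xist and Y-linked genes, mutants 20 and 10 are female and mutant 5 is male. With every sample of at least 4 members and a term for sex, the difference was 0.24 (edgeR adjusted p = 0.945). Mutants 19 and 21 are the only males of run 1, so the sex term takes them up, and mutant 5 is alone in its stage and run. Genotype then rests on mutant 20 against controls 22 and 23 and on mutant 10 against control 9. DESeq2 gave an adjusted p of 0.9998, and without control 23 edgeR's adjusted p was 0.0729. In Lhx9-negative trunk Hox cells the difference was -0.21 ± 0.15 (SE), and the test between the kinds of cells gave an adjusted p of 0.161. Hoxa5 lies inside the annotated span of Hoxa3 and overlaps Gm28308, both on its own strand, so its counts may be divided uncertainly. It also overlaps Hoxaas3 on the other strand, and the use of strand in counting is not given in the sources used here.

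Pgk1, a glycolytic enzyme gene on the X chromosome and a member of the low oxygen list, was higher by 0.61 ± 0.10 (SE, adjusted p = 0.0232). It had 1377 and 1561 CPM in mutants 19 and 21 against 957 to 1203 CPM in the 4 controls, with no overlap. Mutants 10 and 5, with 5 and 4 members, had 1306 and 2495 CPM, but mutant 20 had 750 CPM, below every control. With the term for sex, where mutants 19 and 21 do not enter the genotype contrast, the difference was 0.01. Without control 23 the edgeR adjusted p was 0.0636, and with DESeq2 it was 0.298. The translation factor gene Eef1a1 was higher by 0.37 ± 0.07 (adjusted p = 0.0439), a call lost with DESeq2 (0.9998), with DESeq2's size factors in edgeR (0.0631) and in edgeR with samples of at least 5 or at least 4 members (0.376 and 0.598).

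The other named genes that passed were lower in mutants: Polg2 (mitochondrial DNA polymerase subunit), Slc25a20 (carnitine carrier), Gal (galanin), Myrf, Tc2n, Dct (melanin synthesis), Rpl21 (ribosomal protein) and Pola2 (DNA polymerase alpha subunit), with log2 differences from -3.67 to -0.63. Gal was -2.22 without mutant 21 (edgeR adjusted p = 0.0836) and -4.41 without mutant 19, and Tc2n had an adjusted p of 0.0748 without control 22. With DESeq2, Gal, Myrf and Tc2n each had an adjusted p of 0.9998. Pola2 had 3614 and 3736 CPM in the mutants and 5544 and 5862 in controls 22 and 23, but 1290 in control 3 and 2712 in control 9. Levels of Pola2 thus also differed between the controls of different runs. Controls 3 and 9 also lay below both mutants in Slc25a20 (7.10 and 8.02 CPM, mutants 10.5 and 13.2), in Myrf (4.11 and 4.58 CPM, mutants 7.88 and 6.59) and in Dct (178 and 411 CPM, mutants 615 and 551). In Tc2n control 3 did (7.85 CPM, mutants 28.9 and 23.1). Rpl21 had 1007 and 1009 CPM in mutants 19 and 21 and 1581 and 1762 in controls 22 and 23, with 1665 in mutant 20 and 885 in control 9. For both genes mutant 20 (4984 CPM of Pola2) lay near the controls of its run. In Gal it had 51.4 CPM, above all 4 controls (10.3 to 46.8; mutants 19 and 21 had 7.88 and 1.65), and in Tc2n 71.9 CPM, below controls 22 and 23 (108 and 84.2) and above mutants 19 and 21. Polg2 had 15.8 and 14.8 CPM in mutants 19 and 21 and 35.5, 55.0, 121 and 321 in controls 3, 9, 22 and 23. Mutants 20 and 10 had 30.8 and 23.1 CPM of Polg2, below every control, but mutant 5 had 263, above 3 of the 4. With samples of at least 4 members and a term for sex Polg2 did not pass (edgeR adjusted p = 0.724). Mutants 19 and 21 do not enter the genotype contrast of that fit. Pola2, Rpl21 and Dct also passed in Lhx9-negative trunk Hox cells (-0.48 for Pola2, -0.73 for Rpl21 and -0.58 for Dct).

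Low oxygen genes had higher values in members of mutants 19 and 21, though only Pgk1 passed. The list was chosen with earlier results of these data known, so the counts that follow are a description and no separate test. All 18 tested genes of the list had a positive difference, with a median of 0.66 against 0.02 over all genes tested, and 15 had an unadjusted p under 0.05. In 17 of the 18, both run 1 mutants lay above both run 1 controls, which held for 19.8% of all genes (and the opposite for 20.0%). Bnip3, a mitophagy gene, had 116 and 87.4 CPM in mutants 19 and 21 against 38.3 to 48.6 in the 4 controls (1.37 ± 0.27 SE, adjusted p = 0.0547). Mutant 20 had 10.3 CPM of Bnip3, from 1 UMI, mutant 10 had 46.2 CPM, within the controls, and mutant 5 had 150.1 CPM. Ddit4, an inhibitor of mTOR signalling, had 142 and 54.4 CPM against 4.48 to 28.1 (2.23 ± 0.46 SE, adjusted p = 0.0857). Mutants 20 and 5 had 164 and 206 CPM of Ddit4 and mutant 10 had 0, so the mutants were uneven. Without mutant 21 the differences were 1.57 for Bnip3 and 2.82 for Ddit4, and without mutant 19 they were 1.16 and 1.42. Each of these fits leaves 1 mutant. With the term for sex the difference of Bnip3 turned to -0.59. That contrast rests on mutants 20 and 10, with 1 and 4 UMIs of Bnip3, and mutants 19 and 21 do not enter it. Summed over the list, mutants 19 and 21 had 6466 and 6301 CPM, controls 4714 to 5487, and mutants 20, 10 and 5 had 3782, 5618 and 8217 CPM. Of the 2 female mutants, mutant 20 was thus below all controls in this sum and mutant 10 above all of them. Much of the sum is Ldha and Pgk1, which lay below every control in mutant 20 (1624 and 750 CPM). Ddit4 (164 CPM) and Ndrg1 (30.8 CPM from 3 UMIs, controls 0.374 to 6.24) lay above every control there. In Lhx9-negative cells of mutant 20, Ddit4 had 155 CPM (controls 17.2 to 21.5) and Ndrg1 57.5 CPM (controls 6.19 to 13.9). Pgk1 lay within the controls there, at 946 CPM.

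**Figure D4:**
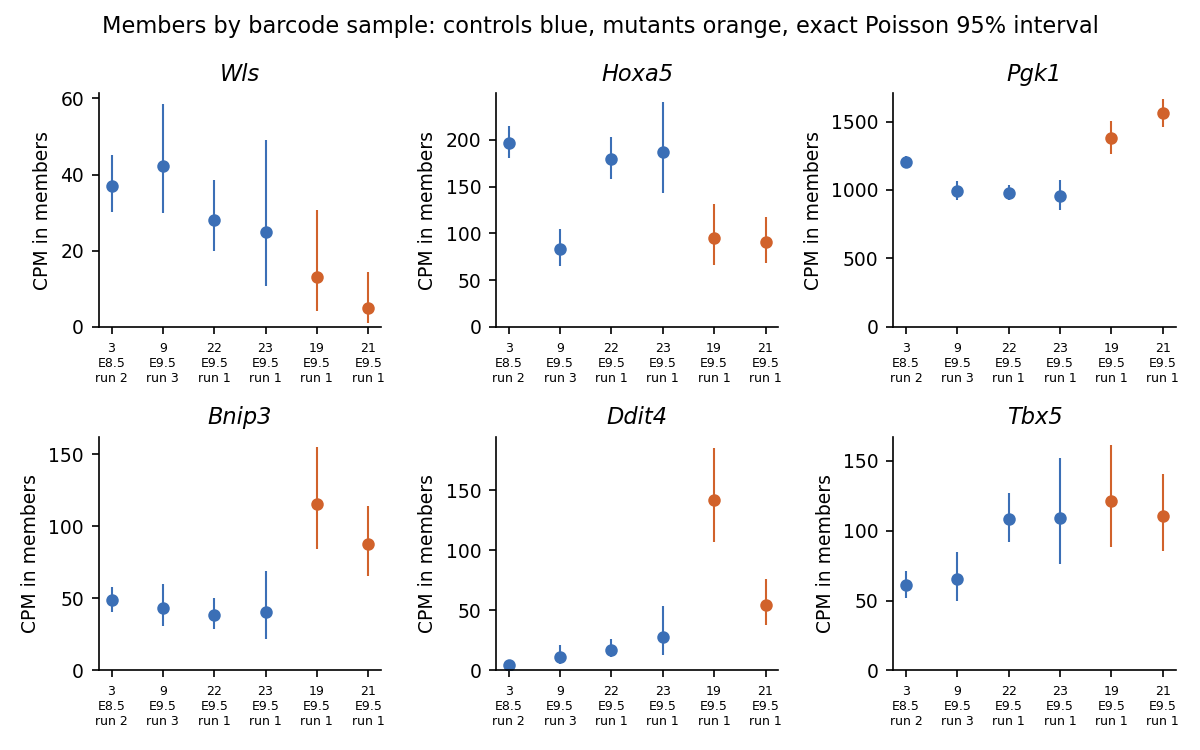
CPM in members (y axes, linear) by barcode sample for Wls, Hoxa5, Pgk1, Bnip3, Ddit4 and Tbx5, with exact Poisson 95% intervals that cover counting error only. Wls is lowest and Bnip3 and Pgk1 highest in the 2 mutants (orange), while Hoxa5 of control 9 lies with the mutants.

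Apart from Hoxa5, none of the limb field, Hox and Wnt target genes tested passed. Of 22 limb field genes tested, 16 had a positive difference (median 0.10) and none passed. Prrx1 differed by -0.04 ± 0.14, Twist1 by 0.04 ± 0.12, Msx1 by 0.31 ± 0.22 and Lix1 by 0.01 ± 0.15 (SE). Of 10 Wnt targets, 5 were positive (median 0.01) and none passed, with Lef1 at -0.29 ± 0.15, Nkd1 at -0.37 ± 0.20 and Axin2 at 0.21 ± 0.28. Hoxd10 differed by 1.51 ± 0.62, Hoxa7 by 0.61 ± 0.25, Hoxb6 by 0.46 ± 0.18 and Crabp1 by 0.54 ± 0.18, each with an adjusted p between 0.404 and 0.493. The value of Hoxd10 moved with single samples. It was -0.55 without mutant 21, 2.14 without mutant 19 and 3.72 without control 22. The fits without mutant 21 or 19 leave 1 mutant. With this number of samples a miss of the threshold does not show that levels were equal.

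The genotype difference was then set against that in Lhx9-negative trunk Hox cells of the same 6 samples. It differed between the kinds of cells for 28 of 10544 genes (edgeR interaction test, adjusted p under 0.05; 0.266%), with 17 shifted upward and 11 downward in members. It was 47 without mutant 19, 72 without mutant 21 and 57 without control 23. In the Lhx9-negative cells themselves 380 of 11858 genes passed (3.20%). These cells outnumbered members in 5 of the 6 samples, from 59 to 193 cells, and control 9 had 33 of them. Of the low oxygen list, 23 of 24 genes passed there in the upward direction, with a median of 1.71. That list was chosen with earlier results of these data known.

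Hk2, Egln1, Bsg and Fam162a had a smaller mutant minus control difference in members. Hk2 (hexokinase) differed between the kinds of cells by -0.92 ± 0.17 (SE, adjusted p = 0.0138). It had 339 and 259 CPM in members of mutants 19 and 21 and 203 to 255 in those of controls 22 and 23, but 385 and 359 against 153 and 159 CPM in Lhx9-negative cells. In both controls of run 1, members were thus higher in Hk2 than the Lhx9-negative cells. Egln1 (an oxygen-sensing prolyl hydroxylase) differed by -0.92 ± 0.19, Bsg (basigin, a partner of lactate carriers) by -0.68 ± 0.13 and Fam162a (a mitochondrial protein gene induced by low oxygen) by -0.62 ± 0.14. Each call was lost when a single sample was left out. The adjusted p was 0.523 for Hk2 without control 22 and 0.113 for Egln1 without control 23. It was 0.139 for Bsg and 0.187 for Fam162a without mutant 21, and 0.735 for Fam162a without control 22. Over the low oxygen list, 21 of 24 differences were negative (median -0.56 against 0.02 over all genes), and Hk2 alone passed. Ndufa4l2, a mitochondrial subunit paralog, differed by -2.02 ± 0.49 (adjusted p = 0.0836). Lhx9-negative cells of mutant 20, outside these fits, had 653 CPM of Bsg, 404 of Fam162a and 14.4 of Ndufa4l2. Those of controls 22 and 23 had 648 and 645, 407 and 457, and 10.6 and 13.8 CPM. Those of mutants 19 and 21 had 1026 and 1167, 812 and 867, and 82.1 and 126 CPM. Hk2 (275 CPM) and Egln1 (210 CPM) of mutant 20 lay between these controls and these mutants. What sex adds was not tested.

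**Figure D5:**
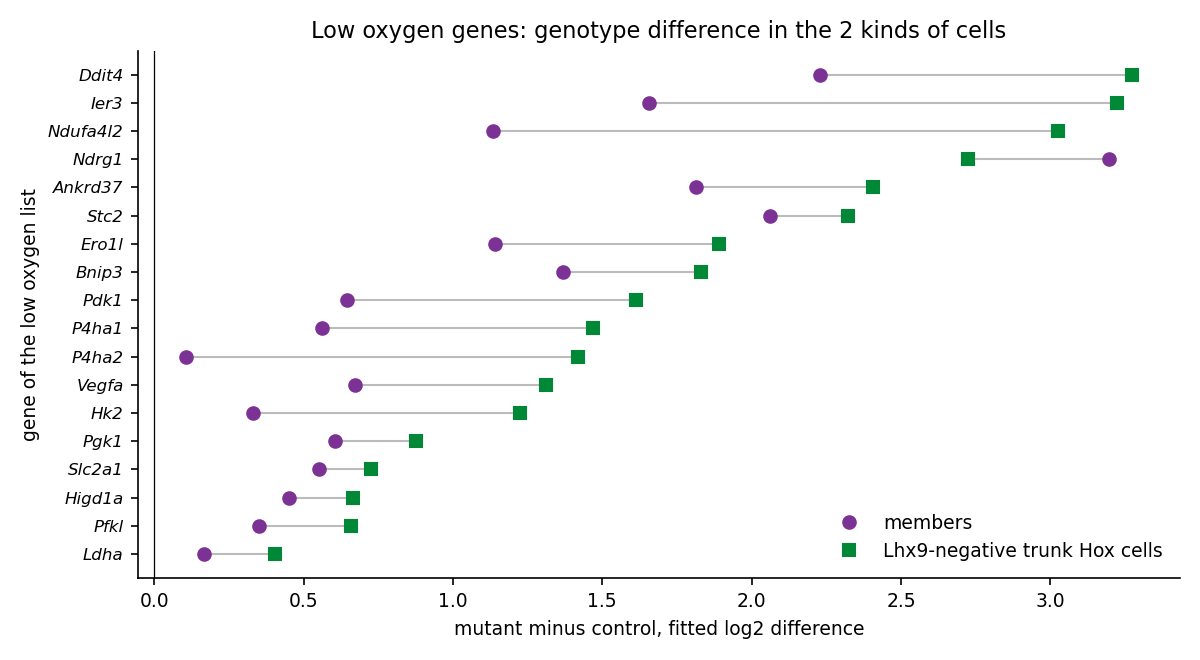
Fitted log2 difference, mutant minus control (x axis), of the 18 low oxygen genes tested in members (purple circles) and in Lhx9-negative trunk Hox cells (green squares). All values are positive, and for every gene except Ndrg1 the value in members is the smaller.

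Globin genes differed between the kinds of cells. Hbb-y differed by 1.77 ± 0.13, Hba-x by 1.72 ± 0.13, Hba-a1 by 1.70 ± 0.22 and Hbb-bh1 by 1.43 ± 0.15 (SE). Hbb-y stood at 612 and 586 CPM in members of controls 22 and 23 and at 1726 and 2276 CPM in their Lhx9-negative cells. In mutants 19 and 21 the 2 kinds were close, 657 and 1208 CPM in members against 698 and 1039 CPM. The excess thus lay in the Lhx9-negative cells of 2 controls, and its source was not tested. Control 3 showed the opposite, with 3250 CPM in members and 1716 in Lhx9-negative cells.

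The named genes with a more positive difference in members also included Nsdhl (2.46 ± 0.51), Idi1 (2.28 ± 0.46), Cyp51 (2.01 ± 0.45), Msmo1 (1.80 ± 0.36) and Fdps (1.80 ± 0.34, SE). All encode enzymes of cholesterol synthesis, a grouping made after their values were seen and not tested. None of the 5 passed without mutant 19, where the edgeR adjusted p ran from 0.364 to 0.95 and the difference of Idi1 was 1.04. Mutant 19 stood above mutant 21: Idi1 had 147 CPM there and 23.1 in mutant 21, against 12.5 to 36.7 CPM in the 4 controls. In mutant 21, Idi1, Cyp51 (28.0 CPM, controls 15.6 to 42.4) and Fdps (51.1 CPM, controls 28.1 to 100.8) thus lay within the range of controls, and Nsdhl (23.1 CPM, controls 6.24 to 13.7) and Msmo1 (49.5 CPM, controls 18.7 to 40.5) above it. Without control 22, Nsdhl, Cyp51 and Msmo1 did not pass either (edgeR adjusted p = 0.167, 0.0559 and 0.436), nor did Cyp51 without control 3 (0.0635). The 4 members of mutant 20 had 71.9 CPM of Idi1, above every control, and the 5 of mutant 10 had 0. More negative in members were Vmn2r63, Gal, Polg2, Ap4e1 and Serpinf1, from -3.74 to -1.07. Of these 5, Polg2 passed in edgeR whichever of the 6 samples was left out, but not with DESeq2 (adjusted p = 0.347). Vmn2r63 did not pass without mutant 19 or control 23 (edgeR adjusted p = 0.0768 and 0.0857) and was -9.10 without mutant 21, Gal did not without mutant 21 (0.695), nor Ap4e1 without control 23 (0.0953), nor Serpinf1 without mutant 19, mutant 21 or control 22 (0.0574 to 0.738). By DESeq2 only the 4 globins passed.

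No test of stage was possible, because only control 3 held 10 or more members before E9.5. Set beside the 3 controls of E9.5, its members had the lowest Hoxb9 (0.374 CPM, others 6.87 to 20.2), Alx4 (5.98, others 12.3 to 17.2) and Ddit4 (4.48, others 11.5 to 28.1), and the highest Prrx2 (613, others 393 to 500), Ccnd1 (236, others 149 to 188) and Crabp2 (528, others 318 to 337). Alx4 is an aristaless-type homeobox gene of the body wall and Ccnd1 encodes a G1 cyclin. Since E8.5 lay in run 2 alone, stage, run and sample cannot be told apart.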

How the data were processed

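The deposited matrix holds raw UMI counts of 51923 genes in 14777 cells, mapped by the authors with kallisto and bustools to GRCm38 per the submitters' processing notes, and demultiplexed by MULTI-seq barcode per the labels. Cell filters and the use of strand are not given in the sources used here. Run, barcode, stage and genotype came from the authors' per-cell table; "wildtype" there was read as fl/+ and "knockout" as fl/fl.

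The members and gene lists were chosen with earlier results of these data known. UMIs of members were summed per barcode sample, and the fits used samples of at least 10 members and a block for stage and run (edgeR 4.0.16, R 4.3.3: low counts removed by filterByExpr, TMM scaling, quasi-likelihood F test, Benjamini-Hochberg adjustment over all genes). The interaction had a block per sample. The 6 samples left 2 residual degrees of freedom. Alternatives included DESeq2 1.42.0. The SE given with an edgeR difference is its absolute size divided by the square root of its F statistic. DESeq2 gave larger ones in members, 0.35 against 0.18 for Hoxa5 and 0.89 against 0.51 for Wls. Shares were compared by exact permutation within stage and run. Members of these samples summed to 320737 to 2675884 UMIs. Doublets were not called; intervals and floors (3 counts) cover counting error only. Genes were named by a rule: the 10 largest rises and falls that passed with 10 CPM in a group, every list gene that passed, label markers, Wls, the 6 most abundant genes of the main lists and the 20 leading genes against other cells; other list genes, and genes shown for their spread, or for stage, were chosen after their values were seen. Some genes that the rule names are not reported here. Tested on simulated data, the genotype fit (7939 genes) recovered 35% of changes of 1 and 77% of changes of 2 on the log2 scale, with 4 false calls. The interaction (10544 genes) recovered 20% and 60%, with 0 false calls.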

Additional observations from a re-analysis of the deposited data

Results flagged for a closer look

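After thinning to 5000 UMIs, the share of members in mutant 5 (4.08%, E9.5) stood apart from the other 5 mutants of that stage. It rests on 2 members of 49 cells. Dixon's test for an outlier was run 6 times, on related measures of share in each genotype at E9.5, and 1 run gave such a sample. By chance a single run gives one about 1 time in 20, and 6 runs do so more often.

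The genotype difference in members departed from that in Lhx9-negative trunk Hox cells by the interaction test, in log2, for Nsdhl (2.46), Idi1 (2.28), Cyp51 (2.01), Msmo1 (1.80), Fdps (1.80), Hbb-y (1.77), Hba-x (1.72), Hba-a1 (1.70) and Hbb-bh1 (1.43). It was more negative for Vmn2r63 (-3.74), Gal (-2.89), Polg2 (-2.80), Ap4e1 (-2.33), Serpinf1 (-1.07), Hk2 (-0.92), Egln1 (-0.92), Bsg (-0.68) and Fam162a (-0.62).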

How the results depend on the processing

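Of the values of named genes under the alternatives, 471 kept direction and side of the threshold, 98 lost the call, 11 gained it and 15 changed sign. This tally is no measure of robustness. Leaving out control 3 or 9, or taking run 1 alone, keeps the same contrast of genotype, and the E9.5 fit repeats it. Pgk1 was 0.607 in the main fit, 0.601 without control 3, 0.604 without control 9 and 0.608 in run 1 alone. Fits that hold 1 mutant are counted too. In members, 22 genes passed; 11 passed with DESeq2 (median of all genes 0.11 against 0.02), 107 without a filter on low counts, 10 with samples of at least 5 members, 22 to 123 when 1 sample was left out, and, in settings chosen after seeing the data, 2 with samples of at least 4 members and 4 when a term for sex was added to these. With that term the genotype contrast rests on mutants 20 and 10 (4 and 5 members), and mutants 19 and 21 do not enter it. The difference then turned for Xist (0.38), Gal (0.16), Tc2n (0.31), Hoxa5 (0.24), Rpl21 (0.0896), Bnip3 (-0.59), Hoxa7 (-0.59) and Lix1 (-0.24). Lix1, at 0.01, was also -0.027 with DESeq2, -0.033 without a filter and -0.015 with samples of at least 4 members. With 1 sample left out, Lix1 ran from -0.13 to 0.095, Prrx1 from -0.20 to 0.062 and Hoxd10 from -0.55 to 3.72. At E9.5, 12 passed with DESeq2, 128 without a filter and 8 to 104 with 1 sample left out. For the interaction, 4 passed with DESeq2, 64 without a filter and 31 to 72 with 1 sample left out. Leaving out mutant 19 or 21 leaves 1 mutant, which is assumed to vary like the controls. The cause was not tested. The difference in shares ran from -0.443 to 0.770 points over all stages and -0.435 to 1.89 at E9.5 with 1 sample left out. With samples of at least 100 cells it was -0.586 and -0.435, and as a share of trunk Hox cells over all stages -1.67. No fit was possible for runs 2 and 3 alone, without E9.5, with at least 20 members, for genotype with Lhx9 at 2 UMIs, with the thinned rule or without members of 20 blood UMIs, nor for stage. No pairing of mutant with control samples was possible because barcode numbers differ between all samples. The interaction did pair the 2 kinds of cells within each sample.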
